A study of Mus musculus with 2 samples.

Results

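The genes described here are 8 autosomal mouse genes whose imprinting is known to be limited to certain tissues, stages or transcript isoforms: Ube3a, Gnas, Copg2, Commd1, Inpp5f, Blcap, Ppp1r9a and Trappc9. They were chosen by name, and their rows were read from 2 libraries of heart nuclei. All 8 were listed in both libraries, out of 24015 loci in the adult heart, 22691 in the aged heart and 25235 in either.

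In genomic imprinting, marks set in the egg or sperm leave 1 parental copy of a gene silent in the offspring. Some imprinted genes keep this state in nearly every tissue. Others are expressed from a single copy only in a few cell types, such as neurons for Ube3a or the placenta for Ppp1r9a, and from both copies elsewhere. Many of the second kind lie beside or around a gene that is imprinted throughout the body, and differential DNA methylation at that neighbour often controls the cluster.

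The hearts came from female F1 hybrids of a C57BL/6J (BL6) mother and a CAST/EiJ (CAST) father. The adult animal was 9 weeks old and the aged animal 78 weeks old. The sample titles and the genotype field name wild-type hybrids, whereas the field for the breed names the cross of BL6 mothers that carry an Xist deletion on 1 X chromosome. Both libraries were from flash-frozen hearts whose nuclei were sorted for DNA, and both pool the reads of those nuclei that used the BL6 X chromosome. A read that covers a base at which the strains differ (SNP) was assigned to BL6 or CAST, and the allelic ratio is the BL6 share of these reads. A ratio of 1 thus stands for reads of the maternal copy alone and a ratio of 0 for the paternal copy alone. No cross in the opposite direction was analysed, so that the parent and the strain of an allele cannot be told apart. Each age was 1 heart, no test between ages or alleles was therefore made, and 95% intervals cover counting error only. The intervals treat reads as independent. Whether duplicate reads were collapsed is not known, and the intervals are too narrow if they were not.

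SNP-overlapping reads numbered 9747535 for the adult and 5805807 for the aged heart. Cardiomyocyte markers were abundant, with reads for 6 of 6 genes and a summed level of 27738 and 25964 reads per 1000000 SNP-overlapping reads (RPM) in the adult and aged heart. Of 9 neuronal markers, 6 had reads in the adult heart and 7 in the aged heart, with a sum of 14.9 and 27.2 RPM, and Nefl and Th were listed in neither. Markers of Schwann cells summed to 5.75 and 5.34 RPM, and those of trophoblast, with reads for 3 of 5 and 2 of 5 genes, to 1.54 and 1.72 RPM. Of 27 genes with well-known imprinting, 12 had 20 or more reads in the adult heart and 10 in the aged heart. Their ratios were 0.7 or higher, or 0.3 or lower, on the side of the known parent for 10 of these 12 and for 10 of these 10. Usp29 and Mest were the adult exceptions. Usp29, known for paternal expression, had 17 BL6 reads and 4 CAST reads, and Mest had 22 and 28. In the aged heart Usp29 (10 BL6 and 6 CAST reads), Cdkn1c (7 and 9), Mest (2 and 10) and Peg13 (0 and 19) had fewer than 20 reads. They were therefore not among the 10 aged genes.

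None of the 8 genes showed the near-exclusive use of a single copy seen in most of these well-known imprinted genes. At either age 0 of 8 had an allelic ratio of 0.7 or higher or of 0.3 or lower, limits that 13.8% of 14037 autosomal genes with 20 or more reads passed in the adult and 14.8% of 12770 in the aged heart. Commd1 (0.695) and Copg2 (0.691) in the aged heart lay just below the upper limit. Commd1 passed it, at 0.704, once the reads of the enclosed gene Zrsr1 were taken away. Copg2 passed it, at 0.705, only when all reads of Mest were taken away, and most of the Mest locus lies outside Copg2. Without the reads of the locus nested inside it, aged Copg2 had 0.696. The ratios ran from 0.417 to 0.644 in the adult and from 0.344 to 0.695 in the aged heart. Their median was 0.525 and 0.531, close to the autosomal medians of 0.536 and 0.537, which themselves carry a small BL6 excess. Pooled over the 8 genes, the ratio was 0.542 over 11226 adult reads and 0.553 over 5491 aged reads.

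Within this range the genes differed. The exact (Clopper-Pearson) interval lay above the autosomal median for 3 of 8 genes in the adult heart, namely Copg2, Commd1 and Trappc9, against 22.1% of autosomal genes. It lay below for Ube3a and Inpp5f, 2 of 8, against 21.6%. In the aged heart it lay above for 2 of 8, Copg2 and Commd1, against 22.5%, and below for 3 of 8, Inpp5f, Blcap and Ppp1r9a, against 22.7%. An interval that leaves out the median is therefore common in these libraries. Commd1 and Copg2 were above the median at both ages, 2 of 8 genes against 13.4% of autosomal genes, and Inpp5f was below it at both, 1 of 8 against 13.0%. Set against the parental copy described as active, the interval lay on its side of the median for 4 genes and on the other side for 1, Ube3a, in the adult heart. In the aged heart it lay on that side for 3 genes, Commd1, Copg2 and Inpp5f, and on the other side for 2, Blcap and Ppp1r9a. These counts are to be read against the 21.6% to 22.7% of all autosomal genes found on each side.

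**Figure D1:**
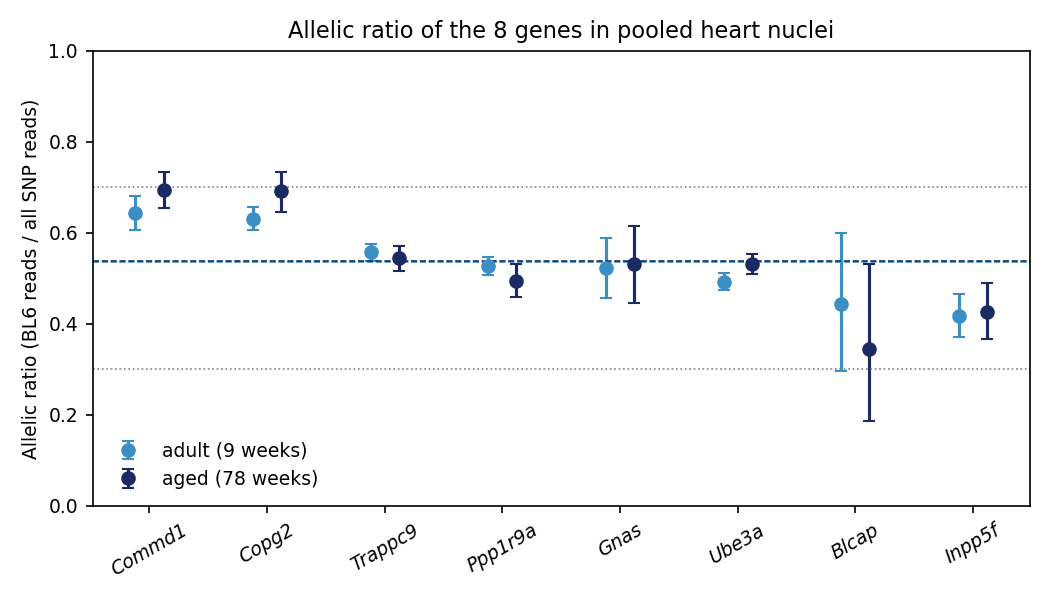
Allelic ratio (BL6 reads over all SNP-overlapping reads, vertical axis) of each of the 8 genes in the adult and the aged library, with exact 95% intervals of the counts and the autosomal median of each library as a line. Commd1 and Copg2 lie above the medians of 0.536 and 0.537 in both libraries, Inpp5f lies below in both, and the wide bars of Blcap rest on 45 and 32 reads.

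In the order of the adult ratios, Commd1 was followed by Copg2, Trappc9, Ppp1r9a, Gnas, Ube3a, Blcap and Inpp5f. In the aged heart Commd1, Copg2 and Trappc9 were again the highest, followed by Ube3a, Gnas, Ppp1r9a, Inpp5f and Blcap. The intervals of neighbours in this order overlapped in 6 of 7 pairs in each library. The only gap lay between Copg2 and Trappc9, in both.

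Commd1 and Copg2 each enclose or overlap a paternally expressed gene read from the opposite strand. The promoter windows of both pairs are shown because a BL6 lead of Commd1 and Copg2 and more CAST than BL6 reads of their partners meet in the same loci. Each window is the RefSeq stretch of 300 bases on GRCm38.p6, with 250 bases before and 50 after the start, written 5′ to 3′ on the strand of the gene. The capitals mark CG dinucleotides, where mammalian DNA is methylated. The windows are at chr11:22982235-22982534 on the minus strand for Commd1, chr11:22971755-22972054 on the plus strand for Zrsr1, chr6:30896745-30897044 on the minus strand for Copg2 and chr6:30737800-30738099 on the plus strand for Mest. Commd1 and Mest have further annotated starts that are not shown.
Commd1: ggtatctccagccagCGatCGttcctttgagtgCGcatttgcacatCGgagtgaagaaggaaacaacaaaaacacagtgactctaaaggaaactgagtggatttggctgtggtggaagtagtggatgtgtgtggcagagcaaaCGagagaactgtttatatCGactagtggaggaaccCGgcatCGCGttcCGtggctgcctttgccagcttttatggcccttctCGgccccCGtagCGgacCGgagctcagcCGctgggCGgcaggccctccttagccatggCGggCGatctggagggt
Zrsr1: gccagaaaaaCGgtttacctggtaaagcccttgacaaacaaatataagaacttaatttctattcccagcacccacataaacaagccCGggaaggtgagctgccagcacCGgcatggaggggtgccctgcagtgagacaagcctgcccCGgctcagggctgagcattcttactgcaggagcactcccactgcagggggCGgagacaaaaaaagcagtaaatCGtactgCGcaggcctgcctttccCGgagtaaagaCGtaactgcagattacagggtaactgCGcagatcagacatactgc
Copg2: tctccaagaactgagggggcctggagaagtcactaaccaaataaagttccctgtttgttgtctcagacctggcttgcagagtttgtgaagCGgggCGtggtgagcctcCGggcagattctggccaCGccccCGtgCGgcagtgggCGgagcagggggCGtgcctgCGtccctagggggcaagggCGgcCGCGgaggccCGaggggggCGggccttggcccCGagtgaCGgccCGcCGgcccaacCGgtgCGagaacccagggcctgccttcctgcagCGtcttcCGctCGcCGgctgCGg
Mest: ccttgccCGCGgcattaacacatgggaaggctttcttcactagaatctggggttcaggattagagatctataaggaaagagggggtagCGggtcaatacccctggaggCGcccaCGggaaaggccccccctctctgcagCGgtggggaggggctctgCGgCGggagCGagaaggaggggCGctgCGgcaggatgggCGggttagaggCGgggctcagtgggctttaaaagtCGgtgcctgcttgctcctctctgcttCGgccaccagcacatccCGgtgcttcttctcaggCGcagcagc

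Copg2 held 25 CG, a number that 18.4% of 32851 promoter windows of the same length reach. Commd1 held 18, reached by 29.7%, Mest 17, reached by 31.4%, and Zrsr1 10, reached by 43.5%. The letters TGCCGC, the core that the imprint-protecting zinc finger protein ZFP57 reads, were searched on both strands. Each match contains a CG, and 11.6% of all windows hold 1 or more. The Copg2 window holds 1 match, the Commd1 window 1, the Mest window 2 and the Zrsr1 window 0. The Commd1 window not shown holds 17 CG and 0 matches. Those of Mest not shown hold 8 CG and 0 matches, and 17 CG and 2 matches. RefSeq windows were found for 7 of the 8 genes, and among their 12 windows these of Copg2 and Commd1 were the 2 with a match. Among the partner genes, matches were found for Snrpn, Snurf, Mest, Nnat, Casd1, Pon3 and Calcr, and for no others with a window. The 12 windows held 10 to 48 CG, against a median of 7 over all windows, so that the share of 11.6% is not matched for CG. A match describes letters and says nothing of binding or methylation in these hearts.

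Commd1 encodes a COMM-domain protein that takes part in copper balance and in the turnover of NF-kB. Its locus is on the minus strand at chr11:22899728-22983108 of GRCm38. In the adult heart it had 412 BL6 reads and 228 CAST reads, a ratio of 0.644 [0.605–0.681]. The aged heart gave 371 and 163, a ratio of 0.695 [0.654–0.734]. The maternal copy thus gave more reads than the paternal copy at both ages, and the paternal copy was far from silent. Among 3285 autosomal genes with between a 2-fold lower and a 2-fold higher read number, 8.61% had an adult ratio at least as high, and 4.57% of 2977 did in the aged heart.

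Zrsr1, a splicing factor gene that arose by retrotransposition and is expressed from the paternal copy, lies within the Commd1 locus at chr11:22972005-22976496 on the plus strand. It overlaps annotated Commd1 exons over 412 bases and is otherwise intronic. Zrsr1 had 4 BL6 reads and 11 CAST reads in the adult heart, a ratio of 0.267 [0.0779–0.551], and 0 and 7 in the aged heart, a ratio of 0 [0–0.410]. Host and guest leaned in opposite directions, although the guest rested on few reads and its adult interval reached 0.551. Where counting ignores strand, the Zrsr1 reads are also part of the Commd1 count. Without them Commd1 had a ratio of 0.653 in adult and 0.704 in aged nuclei, the latter past the limit of 0.7.

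Copg2 encodes a gamma subunit of the COPI coat that carries vesicles from the Golgi to the endoplasmic reticulum. Its locus is on the minus strand at chr6:30747554-30896832. It had 948 BL6 reads and 554 CAST reads in the adult heart, a ratio of 0.631 [0.606–0.656], and 315 and 141 in the aged heart, a ratio of 0.691 [0.646–0.733]. As for Commd1, the BL6 copy led at both ages and the CAST copy remained well represented. Of autosomal genes with a like number of reads, 7.84% were at least as high in the adult and 5.58% in the aged heart.

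Mest, the paternally expressed gene whose methylated promoter marks this cluster, ends inside the end of Copg2, and the 2 loci share 913 bases on opposite strands. Its ratio was 0.44 [0.30–0.587] over 50 adult reads and 0.167 [0.0209–0.484] over 12 aged reads. The use of strand in counting is not known, so that reads of the shared stretch may be counted for both genes, and the Mest ratio cannot be separated from that of Copg2. After all Mest reads were taken away, Copg2 had a ratio of 0.638 in adult and 0.705 in aged nuclei, the latter past the limit of 0.7. Mest reads outside the shared 913 bases are not part of the Copg2 count, so that this may take away too many. Gm38781, a listed locus inside Copg2, had 9 BL6 reads and 4 CAST reads and then 1 and 4. Without the Gm38781 reads Copg2 had 0.631 and 0.696, below the limit of 0.7 at both ages. Copg2os2, Copg2it1, Copg2as2, Klf14 and Cpa4 were listed in neither library.

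An allelic ratio of 0.6 or higher at both ages was seen for Commd1 and Copg2, 2 of 8 genes, and for 15.4% of the 12390 autosomal genes with 20 or more reads in both libraries. Among genes with 400 or more reads in both, a minimum chosen after the read numbers of these 2 genes were seen, the share was 9.35%. The BL6 lead of Commd1 and Copg2 is thus within the range of other autosomal genes.

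**Figure D2:**
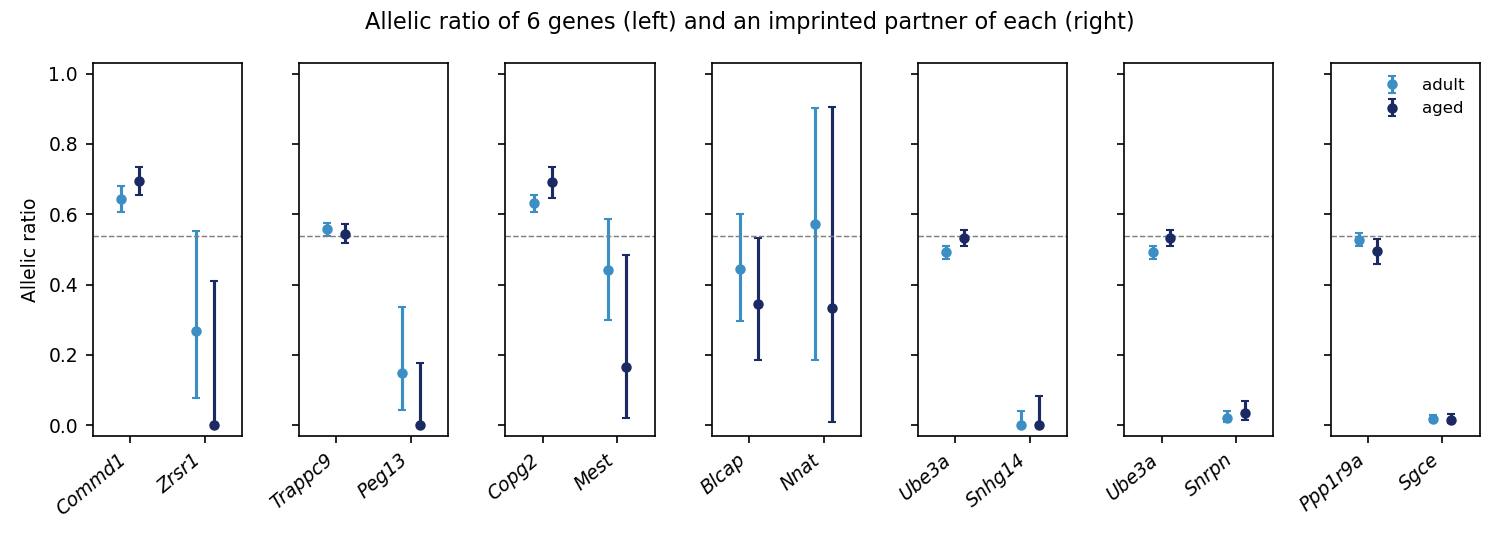
Allelic ratio (vertical axis) of Commd1, Trappc9, Copg2, Blcap, Ube3a and Ppp1r9a, each beside an imprinted partner gene, in the adult and the aged library, with exact 95% intervals and the autosomal median as a dashed line. Sgce, Snrpn and Snhg14 lie at or near 0 while Ppp1r9a and Ube3a lie between 0.492 and 0.532, and the bars of Zrsr1, Nnat and Mest are wide for want of reads.

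Inpp5f encodes a phosphatase that removes a phosphate from inositol lipids of endosomes, and short isoforms that start inside the gene are expressed from the paternal copy, in brain in particular. Its locus is on the plus strand at chr7:128610778-128696437. It had 182 BL6 reads and 254 CAST reads in the adult heart, a ratio of 0.417 [0.371–0.465]. The aged counts were 111 and 149, a ratio of 0.427 [0.366–0.490]. It was the only gene of the 8 with a CAST lead whose interval left out 0.5 at both ages. Of autosomal genes with a like number of reads, 7.39% were at least as low in the adult and 13.3% in the aged heart. The counts are summed over the locus, so that the short isoforms and the full-length transcript cannot be told apart.

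Mcmbp, a DNA replication gene that lies 4 bases beyond the end of the Inpp5f locus as listed, had a ratio of 0.582 and 0.555. Bag3, a chaperone regulator of muscle 63.8 kb away on the other side, had 0.494 and 0.449. The CAST lead of Inpp5f was thus not shared by Mcmbp, although the aged interval of Mcmbp, 0.523 to 0.587, held the autosomal median. On the other side Bag3 lay below the median at both ages, with intervals of 0.471 to 0.517 and 0.421 to 0.476. The aged interval of Bag3 overlapped that of Inpp5f, and the adult interval did not.

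Trappc9 encodes a subunit of the TRAPPII complex, which tethers transport vesicles. Its locus spans chr15:72589620-73061244 on the minus strand. It had 1603 BL6 reads and 1273 CAST reads in the adult heart, a ratio of 0.557 [0.539–0.576], and 726 and 608 in the aged heart, a ratio of 0.544 [0.517–0.571]. Both ratios were close to the autosomal medians. Peg13, a noncoding RNA expressed from the paternal copy, lies in a Trappc9 intron at chr15:72805604-72810324 on the same strand. Peg13 had 4 BL6 reads and 23 CAST reads in the adult heart (ratio 0.148 [0.0419–0.337]) and 0 and 19 in the aged heart (ratio 0 [0–0.176]). Peg13 thus had a strong CAST lead within a host gene that was read from both copies. Chrac1 and Ago2, neighbours that share maternal expression with Trappc9 in brain, had 0.607 and 0.512 in the adult and 0.576 and 0.517 in the aged heart.

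A further listed locus inside Trappc9, Gm41343 at chr15:72845973-72848834, had 142 BL6 reads and 102 CAST reads in the adult heart, a ratio of 0.582 [0.517–0.645]. Its aged counts were 44 and 75, a ratio of 0.370 [0.283–0.463]. The side of its lead therefore differed between the hearts, unlike that of its host. Without Peg13 and Gm41343, which made up 9.42% and 10.3% of its reads, Trappc9 had a ratio of 0.559 [0.540–0.578] in adult and 0.570 [0.542–0.599] in aged nuclei, and the aged interval then lay above the autosomal median.

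Ube3a encodes the ubiquitin ligase whose loss causes Angelman syndrome, and its paternal copy is silenced in neurons by a long antisense transcript that continues from Snhg14. Its locus is on the plus strand at chr7:59228750-59306733. It had 1374 BL6 reads and 1418 CAST reads in the adult heart, a ratio of 0.492 [0.473–0.511]. In the aged heart it had 1039 and 915, a ratio of 0.532 [0.509–0.554]. Its counts were the deepest after Trappc9 in the adult heart and the deepest in the aged heart. The locus was read from both copies in near equal amounts. The use of strand in counting is not known, so that any antisense reads across the locus may be part of these counts. In the adult heart the interval of Ube3a lay below the autosomal median, on the side opposite to the maternal expression known from neurons.

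The paternally expressed genes of the same domain had almost no BL6 reads. Snrpn had 7 BL6 reads and 337 CAST reads in the adult heart and 7 and 197 in the aged heart. Snurf, which shares transcripts with Snrpn, had 2 and 288 and then 0 and 185. Snhg14 had 0 of 91 and 0 of 43 reads from BL6. Paternal expression of the domain and reads from both copies of the Ube3a locus thus stood side by side, with Snhg14 as listed 663 kb from Ube3a. Atp10a, on the other side, had ratios of 0.552 and 0.60. Mkrn3 and Peg12 had at most 5 reads, and Ndn and Magel2 were listed in neither library.

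Ppp1r9a encodes neurabin, a scaffold that links protein phosphatase 1 to actin, and its maternal expression is described in placenta and embryonic muscle. Its locus is on the plus strand at chr6:4902744-5165661. It had 1425 BL6 reads and 1277 CAST reads in the adult heart, a ratio of 0.527 [0.508–0.546], and 384 and 392 in the aged heart, a ratio of 0.495 [0.459–0.531]. Reads of both copies were again nearly equal. Sgce, the paternally expressed epsilon-sarcoglycan gene 156 kb away, had 13 BL6 reads and 747 CAST reads in the adult (ratio 0.0171) and 7 and 428 in the aged heart (ratio 0.0161). Among the placental neighbours on the list, Pon2, Pon3 and Asb4 had ratios from 0.515 to 0.560 in both libraries. Casd1 had 0.648 in the adult and 0.533 in the aged heart. Calcr and Tfpi2, with 12 and 4 adult reads, came from BL6 alone in the adult heart, and had 8 of 10 and 7 of 10 reads from BL6 in the aged heart. Peg10 and Pon1 had at most 3 reads. A listed locus inside Ppp1r9a, LOC108169128, had 7 BL6 reads and 5 CAST reads in the adult heart and was not listed in the aged heart.

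Gnas encodes the stimulatory G protein alpha subunit, whose paternal copy is silenced in a few tissues such as the proximal kidney tubule and the pituitary, and its locus also holds maternal and paternal alternative transcripts. It lies on the plus strand at chr2:174284306-174346744. It had 122 BL6 reads and 111 CAST reads in the adult heart, a ratio of 0.524 [0.457–0.589], and 77 and 68 in the aged heart, a ratio of 0.531 [0.446–0.614]. At this depth no lead of either copy was detectable. Gm30189, a listed locus in an intron of Gnas, had 4 BL6 reads and 14 CAST reads in the adult heart and 0 and 2 in the aged heart. Without it Gnas had 0.549 and 0.538. Nespas, the paternal antisense RNA of this locus, was listed in neither library.

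Blcap encodes a small membrane protein and encloses paternally expressed Nnat, which is on the opposite strand. The Blcap locus is at chr2:157556362-157566460 on the minus strand. It had 20 BL6 reads and 25 CAST reads in the adult heart, a ratio of 0.444 [0.296–0.60]. The aged heart gave 11 and 21, a ratio of 0.344 [0.186–0.532]. These few reads leave room for a lead of either copy in the adult heart, and in the aged heart the point estimate was on the CAST side. Nnat had 4 and 3 reads and then 1 and 2, too few for a direction. Without the Nnat reads the aged ratio of Blcap was 0.345, and its interval reached up to 0.543 and held the autosomal median.

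The ratios were then set beside those of the other genes within 500 kb. Loci that overlap a gene were left out of these counts. Copg2 stood highest in its region: 0 of 11 other genes with 20 or more reads had a higher ratio in the adult heart and 0 of 9 in the aged heart, and the intervals of 9 and 7 of them lay wholly below that of Copg2. The region's medians were 0.524 and 0.550. Its nearest informative neighbours were Tmem209, with 0.537 and 0.669, and Lncpint, with 0.404 and 0.424. The Copg2 lead was thus not shared by most of the genes around it, and Tmem209 in the aged heart came closest, with an interval that overlapped that of Copg2.

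Around Commd1, 2 of 8 genes were higher in the adult heart and 1 of 6 in the aged heart, and 4 and 3 intervals lay wholly below that of Commd1. Cct4, 7.49 kb away, had 0.535 and 0.617, and B3gnt2 had 0.544 and 0.402. Around Inpp5f, 1 of 11 and 1 of 10 genes were lower, and the intervals of 5 and 4 genes lay wholly above. Around Ube3a, 2 of 4 adult and 3 of 4 aged intervals lay wholly above, and around Ppp1r9a 4 of 9 adult and 2 of 8 aged intervals lay wholly below and 1 adult interval above. Around Gnas and Trappc9 no non-overlapping gene had an interval wholly above or below that of the gene in either library. Inside Trappc9 the adult interval of Peg13, 0.0419 to 0.337, and the aged interval of Gm41343, 0.283 to 0.463, lay wholly below that of Trappc9. Npepl1 and Ctsz beside Gnas had adult ratios of 0.527 and 0.634 and aged ratios of 0.476 and 0.633. Around Blcap 0 of 9 adult and 3 of 9 aged intervals lay wholly above. Its nearest informative neighbours Src and Ctnnbl1 went from 0.429 to 0.323 and from 0.537 to 0.333, with intervals that overlapped between the ages. Soga1 and Manbal were also lower in the aged heart, whereas Samhd1, Rbl1, Rpn2, Tti1 and Rprd1b were higher. C230091D08Rik, 1.19 kb from Ube3a, had 0.448 in the adult and 0.550 in the aged heart, below and then above the autosomal median. Over all 8 regions the median ratio was 0.537 for 63 adult and 0.539 for 58 aged genes, which is that of the autosomes.

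**Figure D3:**
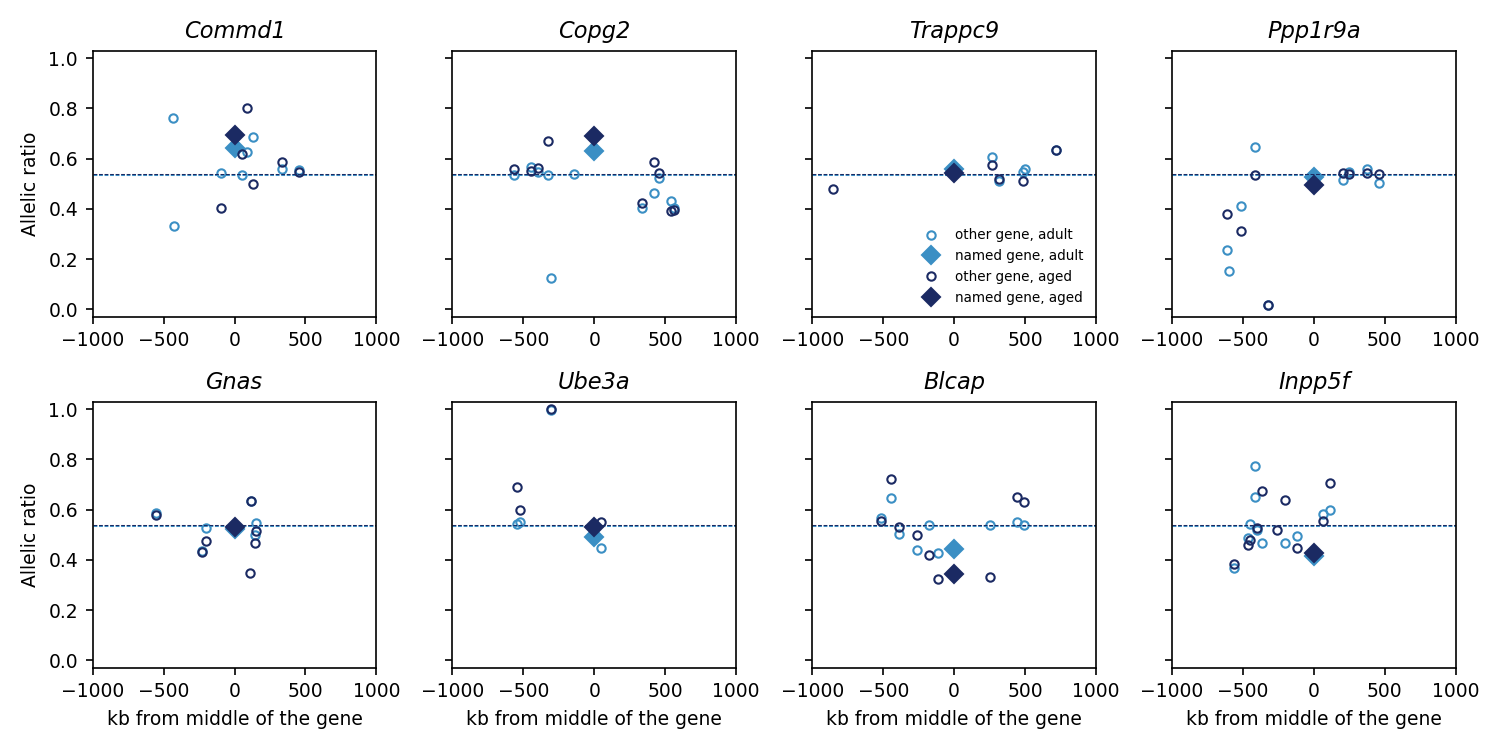
Allelic ratio (vertical axis) of each of the 8 genes and of other genes within 500 kb of it, in both libraries. The other genes are all those with 20 or more reads that do not overlap the named gene. The horizontal axis is the distance in kb between the middles of the genes. The filled diamonds are the named genes, the open circles their neighbours and the dashed lines the autosomal medians of 0.536 and 0.537; Copg2 is above all its neighbours, and Sgce lies near 0 beside Ppp1r9a.

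Between the ages the largest difference in allelic ratio was that of Blcap, which was lower by 0.101 in the aged heart, with an interval of adult minus aged from -0.119 to 0.301 on its few reads. The aged ratio was higher by 0.0396 [0.0107–0.0684] for Ube3a and by 0.0596 [0.00961–0.107] for Copg2 (Newcombe intervals). These were the 2 of 8 genes whose interval left out 0 with a higher aged ratio, as it did for 13.7% of autosomal genes, or 22.0% of those with 400 or more reads in both libraries. The interval left out 0 with a lower aged ratio for 0 of 8 genes and 12.8% of autosomal genes. Commd1 was higher by 0.0510 in the aged heart, with an interval from -0.00315 to 0.104. Ppp1r9a was lower by 0.0325 and Trappc9 by 0.0131, and Gnas and Inpp5f were higher by 0.00743 and 0.00949, with intervals that held 0. Larger differences than those of Ube3a, Copg2 and Commd1 were seen in 34.4%, 30.1% and 38.7% of genes with a like number of reads. Differences of this size between the hearts were therefore common among genes of like depth.

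The levels of expression were compared next. Levels are RPM of each gene in the 2 libraries and are compared between ages only, since the number of SNPs differs between genes. In pooled nuclei, fewer nuclei of a type and less RNA per nucleus cannot be told apart. Ppp1r9a had 277 RPM in the adult heart and 134 in the aged heart, an aged-to-adult ratio of 0.482 [0.445–0.522]. Copg2 had 154 and 78.5 RPM, a ratio of 0.510 [0.458–0.566]. These were the 2 of 8 genes at least 1.5-fold lower in the aged heart, against 11.7% of autosomal genes, and 0 of 8 were at least 1.5-fold higher, against 28.3%. Trappc9, at 295 and 230 RPM, had a ratio of 0.779 [0.729–0.831].

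Commd1 had 65.7 and 92.0 RPM, an aged-to-adult ratio of 1.40 [1.25–1.57]. Ube3a had 286 and 337 RPM, a ratio of 1.18 [1.11–1.25]. The interval of the ratio lay below 1 for 3 of 8 genes, against 20.6% of autosomal genes, and above 1 for Commd1 and Ube3a, 2 of 8, against 42.6%. Gnas (23.9 and 25.0 RPM), Inpp5f (44.7 and 44.8 RPM) and Blcap (4.62 and 5.51 RPM) had intervals that held 1. The ratios are to be read against an autosomal median of 1.17, a shift of 0.22 on the log2 scale, so that Ube3a was at the middle of all genes. Summed markers of fibroblasts (566 and 922 RPM) and endothelial cells (320 and 586 RPM) were also higher in the aged heart. Of the single markers, 4 of 5 and 3 of 4 were higher, Dcn, at 461 and 773 RPM, made up most of the fibroblast sum, and Col1a2 and Vwf were lower. The cardiomyocyte sum was lower, at 27738 and 25964 RPM, although 4 of 6 of these markers were higher and only Ttn and Tnnt2 lower. The neuronal sum was higher, at 14.9 and 27.2 RPM, and the Schwann cell sum was 5.75 and 5.34 RPM. The part of these cell types in the differences of the 8 genes was not tested.

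**Figure D4:**
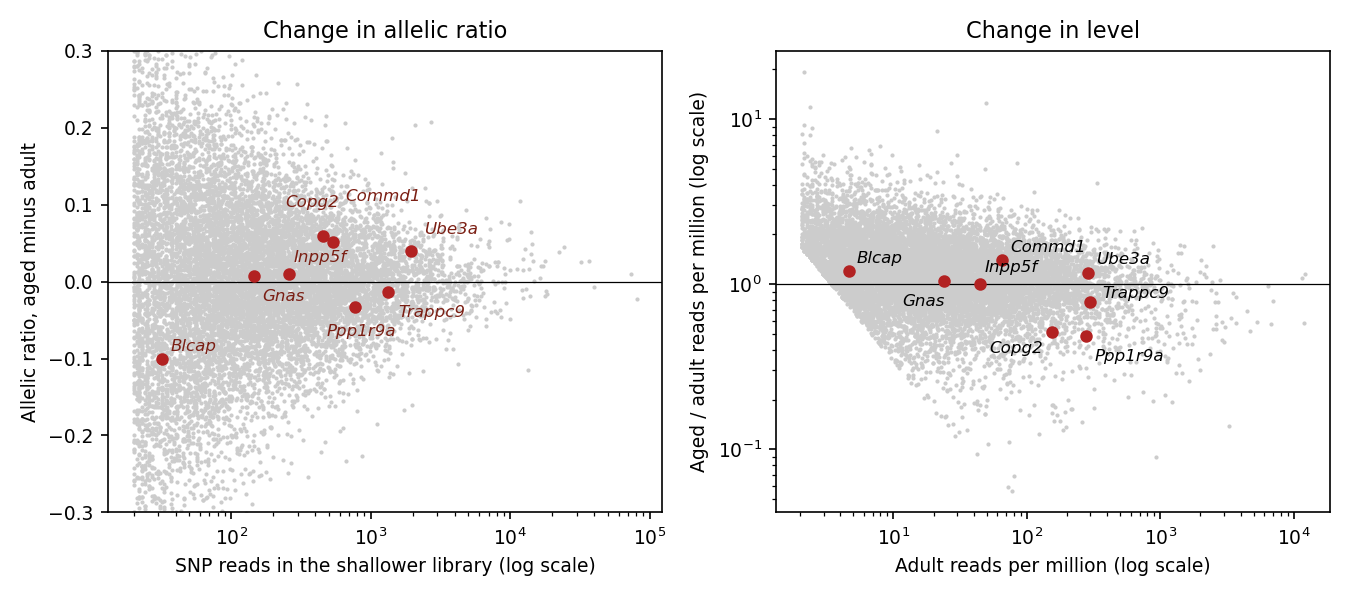
Left, allelic ratio in the aged minus that in the adult heart against the SNP-overlapping reads in the shallower library (log scale), and right, the ratio of aged to adult RPM against adult RPM (both log scale), for the 8 genes (red) and all other autosomal genes with 20 or more reads in both libraries (grey). On the left 217 other genes lie outside the axis limits of 0.3; the 8 genes lie inside the grey cloud in both plots, with Copg2 and Ppp1r9a low on the right.

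The level of each copy was compared as well. For Copg2 the BL6 level was 97.3 RPM in the adult and 54.3 in the aged heart, a ratio of 0.558 [0.490–0.634], and the CAST level was 56.8 and 24.3 RPM, a ratio of 0.427 [0.353–0.515]. For Ppp1r9a the ratios were 0.452 [0.403–0.507] for BL6 and 0.515 [0.459–0.578] for CAST. For Commd1 the BL6 level was 42.3 and 63.9 RPM, a ratio of 1.51 [1.31–1.74], and the CAST level 23.4 and 28.1 RPM, a ratio of 1.20 with an interval from 0.976 to 1.47. For Ube3a the ratio was 1.27 [1.17–1.38] for BL6 and 1.08 [0.996–1.18] for CAST. The lower aged levels of Copg2 and Ppp1r9a were thus seen on both copies. For Commd1 and Ube3a the interval lay above 1 for the BL6 copy and held 1 for the CAST copy. The autosomal median of the aged-to-adult ratio was 1.168 for whole genes. Both CAST intervals held that median too, the BL6 interval of Commd1 lay above it, and that of Ube3a began at 1.170. The interval of the difference in allelic ratio, which compares the copies directly, left out 0 for Ube3a and held 0 for Commd1.

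**Figure D5:**
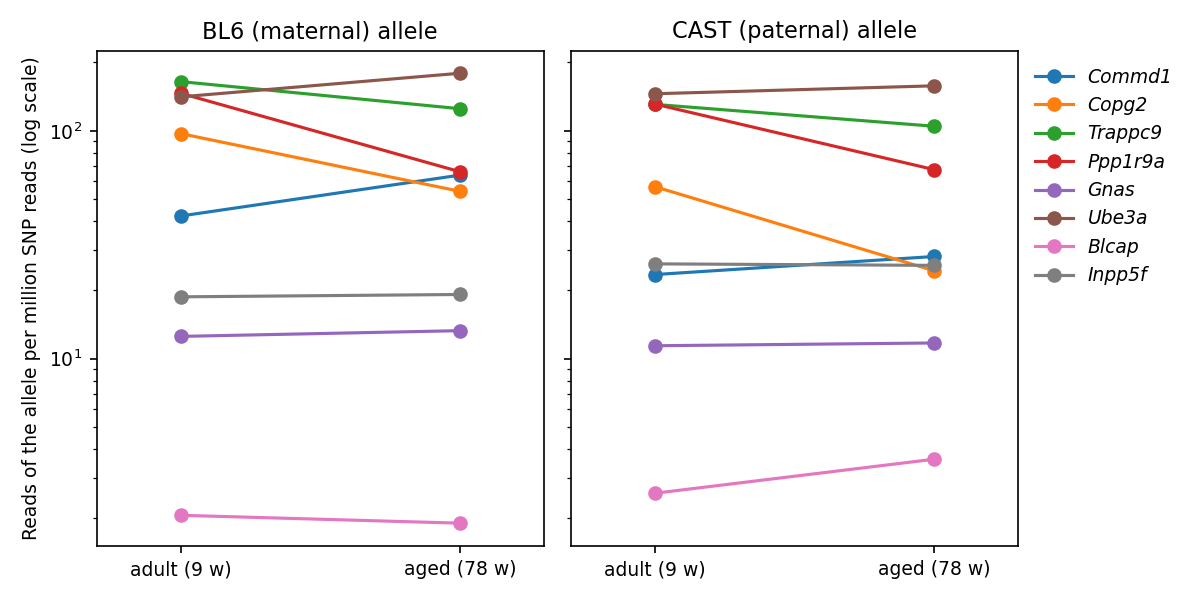
Level of the BL6 (left) and the CAST copy (right) of each of the 8 genes in RPM (log scale) in the adult and the aged library, with a line joining the 2 values of a gene. The lines of Copg2 and Ppp1r9a slope down on both copies, from 97.3 to 54.3 and from 56.8 to 24.3 RPM for Copg2.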

How the data were processed

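Nuclei of 1 adult and 1 aged heart were profiled by single-nucleus RNA-seq. Per the labels and the study's methods, the authors aligned the reads (Cell Ranger 7.1.0 is named in the submitters' processing notes), pooled the nuclei with an active BL6 X chromosome and counted alleles by Allelome.PRO2 over RefSeq genes of GRCm38. The deposited values are counts of BL6, CAST and total SNP-overlapping reads per locus, not normalized, the allelic ratio as a fraction rounded to 2 decimals, and an allelic score, which was not used. The study's methods name CellBender for ambient RNA and DoubletFinder for doublets in the expression matrices. The allele counts were made from the aligned reads, neither step is named for them, and no correction for either was made here. Whether duplicate reads were collapsed is not given in the sources used here, nor is the use of strand. All 3048 adult and 2825 aged nested loci had no more reads than their hosts, so nested reads were treated as part of the host. The depth was 9747535 adult and 5805807 aged reads.

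Allelic ratios were recomputed from the counts, with a minimum of 20 reads. Intervals are Clopper-Pearson for ratios, Newcombe for differences and conditional exact for ratios of RPM, all at 95% (Python 3.11.15, scipy 1.17.1, statsmodels 0.14.6). They treat reads as independent. The functions were tested on simulated data. Coordinates are the deposited ones, counted from 1. Strands and exons are from GENCODE M21.

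The age in the labels was used, although another number of weeks stands in the name of the aged file. The genes, partners, controls and markers were chosen with earlier results of these data known. Named are the 8 genes, their imprinted partners, every locus overlapping them, the nearest informative gene on each side within 500 kb, and control and marker genes. The alternatives were other limits, read minimums, intervals, references and scalings, and nested reads taken away. Taking away all Mest reads from Copg2 was added after the data were seen.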

Additional observations from a re-analysis of the deposited data

How the results depend on the processing

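Of 89 recomputed values under the alternatives, 71 moved by no more than their interval or 1.5 times and 18 moved further. No value whose interval left out its reference changed side, but 7 others did: without nested reads Gnas lay above the autosomal medians (0.549 and 0.538), and adult minus aged was 0.0104 for Gnas and -0.0109 for Trappc9. The other 3 were aged-to-adult levels, of Gnas (0.894) and Inpp5f (0.857) by the median of ratios and of Inpp5f (1.00) scaled to autosomal reads. With limits of 0.6 and 0.4 in place of 0.7 and 0.3, 2 adult genes (Copg2 and Commd1) and 3 aged genes (these and Blcap) counted as biased. With nested reads taken away 1 aged gene passed 0.7, Commd1 at 0.704, and with all Mest reads taken away 1 did, Copg2 at 0.705. With 99% intervals 3 aged genes left out the autosomal median. Centred on the autosomal median, the ratios were 0.456 and 0.494 for Ube3a, 0.491 and 0.458 for Ppp1r9a and 0.522 and 0.507 for Trappc9 in the adult and aged heart, and 0.597 for Copg2 in the adult heart. Gnas (0.488 and 0.494), adult Ppp1r9a and aged Ube3a thus lay below 0.5 once centred and above it before. The exact intervals of the ages overlapped for every gene, so that 0 of 8 differed by that rule. Scaled by the median of ratios, the aged-to-adult level was 1.01 for Ube3a, 1.20 for Commd1, 0.436 for Copg2, 0.413 for Ppp1r9a and 0.667 for Trappc9. The cause of these moves, beyond the change of rule or scale itself, was not tested.

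With 1 heart per age, differences between animals are not covered by any interval, and leaving out a library was not possible. No paired analysis was possible because each age has 1 library. Parent and strain cannot be told apart without the opposite cross. The reads of Blcap, Zrsr1, Peg13, Mest and Nnat are too few for a small lead to be detected. Isoforms and cell types are pooled, so that a bias in a rare cell type would not be visible.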

Other observations

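Gm39020, the nearest informative locus on 1 side of Ube3a, 147 kb away, had 1625 BL6 reads and 6 CAST reads in the adult heart, a ratio of 0.996 [0.992–0.999]. In the aged heart it had 157 and 0 reads, a ratio of 1 [0.977–1]. Its level was 167 RPM in the adult and 27.0 RPM in the aged heart. It thus had nearly no CAST reads in either heart, next to Ube3a with 1418 and 915 CAST reads and in a region whose listed paternal genes had nearly no BL6 reads.

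The neuronal marker with the most reads was Syt1, with 111 reads in the adult heart and 89 in the aged heart. Its ratio was 0.117 [0.0639–0.192] and 0.360 [0.261–0.468], so that its CAST lead was smaller in the aged heart.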
